A study of Mus musculus with 6 samples.

Results

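Type I interferon-stimulated genes are described here as a fixed list of 31 mouse genes, among them the Mx, Ifit and Oas families, Isg15, Irf7 and Rsad2. Membership is by gene name, and the names were chosen with earlier results of these data known. All 31 symbols have a row in the 24062-gene count tables, and all 31 are among the 13155 genes with enough counts to be tested. The libraries are polyA RNA-seq of GM-CSF cultures of C57BL/6J femur and tibia marrow, which give dendritic cells and macrophages beside other marrow cells. Low tension means a 2 kPa substrate (3 libraries) and high tension a 50 kPa substrate (3 libraries). All 6 cultures received GM-CSF at 20 ng/ml, with fresh cytokine on days 3, 6 and 10, and no interferon or other agent is named in the labels. No sort is named either, so each value is an average over the whole culture, in which fewer cells of a type and less RNA per cell cannot be told apart. Whether the replicates are separate mice or separate wells is not stated, so every p-value here reflects the spread of these 6 libraries and that spread may be technical. The comparison asks how transcription differs with the stiffness of the substrate.

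Type I interferons are secreted proteins that bind the receptor made of IFNAR1 and IFNAR2. The receptor's kinases JAK1 and TYK2 phosphorylate STAT2, which acts with IRF9 in a complex called ISGF3 to switch on antiviral genes through a DNA element, the interferon-stimulated response element (ISRE). Myeloid cells make low amounts of interferon beta when nucleic acid sensors or Toll-like receptors are engaged, and IRF7, itself an interferon-stimulated gene, amplifies the loop. Interferon gamma acts through another receptor and a different element, the gamma-activated site (GAS).

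Promoter windows of RefSeq genes on GRCm38.p6, 250 bases before to 50 after each start, were available for 22 of the 31 genes in 25 windows. Windows were not at hand for Mx1, Mx2, Oas2, Usp18, Dhx58, Zbp1, Ifi27l2a, Rtp4 and Parp14. The ISRE was searched as GAAA, any 2 bases and GAAA again, on both strands, with overlapping matches counted. It was present in 13 of the 25 windows (52%), in 12 genes, beside 3.44% of all 32851 windows of that length. The GAS was searched as TTCNNNGAA, which reads alike on both strands, and was present in 4 of the 25 windows (16%) beside 8.3% of all windows. In Bst2 a GAS match shares bases with an ISRE match. Upstream stretches of 5 genes are printed because they show the ISRE in single, paired and overlapping copies. Each reads 5′ to 3′ on the gene's strand, and capitals mark ISRE matches.
Isg15 (chr4:156200855-156200916, minus strand): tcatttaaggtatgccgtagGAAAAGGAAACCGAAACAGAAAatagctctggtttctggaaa
Ifit1 (chr19:34640765-34640833, plus strand): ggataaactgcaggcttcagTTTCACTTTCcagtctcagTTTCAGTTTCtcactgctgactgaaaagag
Ifit3 (chr19:34583353-34583436, plus strand): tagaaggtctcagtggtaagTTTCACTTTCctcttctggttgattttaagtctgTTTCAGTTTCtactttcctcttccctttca
Oas1a (chr5:120907526-120907565, minus strand): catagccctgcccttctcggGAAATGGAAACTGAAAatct
Rsad2 (chr12:26456543-26456592, minus strand): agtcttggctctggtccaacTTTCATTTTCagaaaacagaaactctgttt

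Isg15 held 3 overlapping matches between bases -78 and -57 from the start, and Oas1a held 2 between bases -20 and -5. Ifit1 and Ifit3 each held 2 separate matches, and the letters of both pairs are the same. In Ifit1 they began at bases -104 and -85, and in Ifit3 at bases -156 and -122. Rsad2 held 1 match, at bases -120 to -111. The letters were not present in the windows of Cmpk2, Ifit2, Oasl1, Oasl2, Irf7, Irf9, Ifi44, Xaf1, Herc6 and Samd9l. The median log2 fold change at 50 kPa was -1.01 for the 12 genes with a match and -0.99 for these 10.

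**Figure D1:**
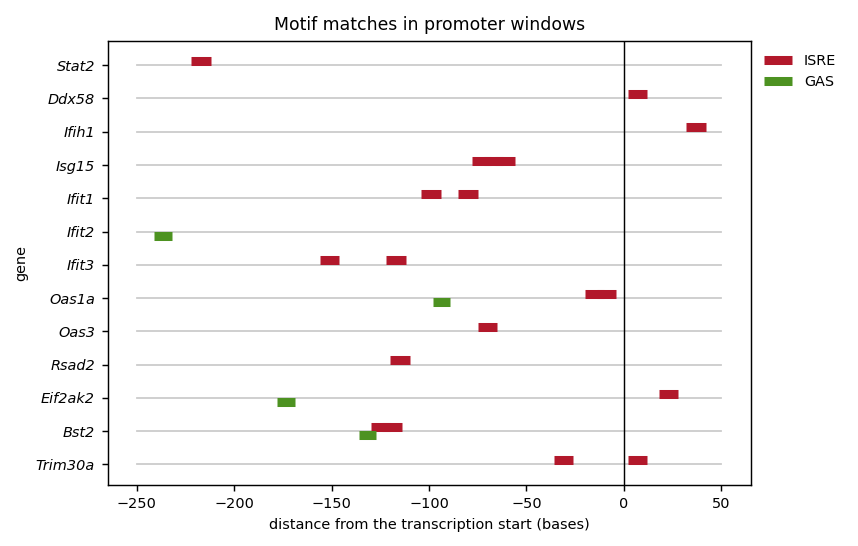
Matches to the ISRE (red) and the GAS (green) in the promoter windows of the 13 genes with a match to either; the x axis is the distance from the transcription start in bases and the grey line of each gene runs from 250 bases before to 50 bases after it, with matches of all its windows drawn together. ISRE matches lie on both sides of the start, from base -222 in Stat2 to base 41 in Ifih1.

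Libraries held 33.8 M to 36.3 M counts, and levels are given as normalised CPM, counts per M of the TMM-scaled library. Libraries of the same stiffness were not alike for these genes. Replicate 3 had the highest level of its stiffness in 31 of 31 genes at 2 kPa and in 31 of 31 at 50 kPa, whereas 21.7% of all tested genes were highest in replicate 3 at both stiffnesses. The 31 genes together took 1.78% of counts in 2 kPa replicate 3 but 0.51% and 0.454% in 2 kPa replicates 1 and 2. At 50 kPa they took 0.746% in replicate 3 and 0.192% and 0.163% in replicates 1 and 2. High tension replicates 1 and 2 resembled each other far more than any other pair within a group, their counts giving a chi-square per degree of freedom of 6.71 where the other pairs gave 126 to 233. They still differed by more than sampling noise and were kept as 2 samples. Results are therefore given with all 6 libraries and, as a choice made after seeing the data, without replicate 3 of both stiffnesses.

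With all 6 libraries and stiffness as the only term, no gene of the list passed the test, although every one of the 31 had a lower fitted level at 50 kPa, as did 53.2% of all tested genes. Log2 fold changes, given as 50 kPa over 2 kPa with standard errors, ran from -3.20 ± 1.37 for Cmpk2, a mitochondrial nucleotide kinase, to -0.15 ± 0.47 for Ifi27l2a, a small mitochondrial membrane protein. By edgeR's quasi-likelihood test 0 of 31 genes had a Benjamini-Hochberg adjusted p under 0.05, beside 3.45% of all 13155 tested genes (1.98% lower and 1.47% higher at 50 kPa). The adjusted p-values by edgeR ran from 0.189 to 0.85. At an unadjusted p under 0.05 there were also 0 of 31, beside 27.8% of all genes (14.8% lower). DESeq2 called 0 of 31 beside 18.0% of all genes, with 2 at an unadjusted p under 0.05, and limma-voom called 0 beside 3.27%. The median log2 fold change of the list was -1.10, beside -0.028 for all tested genes, and 18 of the 31 stood at or below -1. Without 2 kPa replicate 3 the median moved to -0.19 and 9 genes had a higher fitted level at 50 kPa, and without 50 kPa replicate 3 to -2.31. In 0 of the 31 genes did the values of one stiffness all lie above those of the other, as they did in 34.1% of all tested genes.

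**Figure D2:**
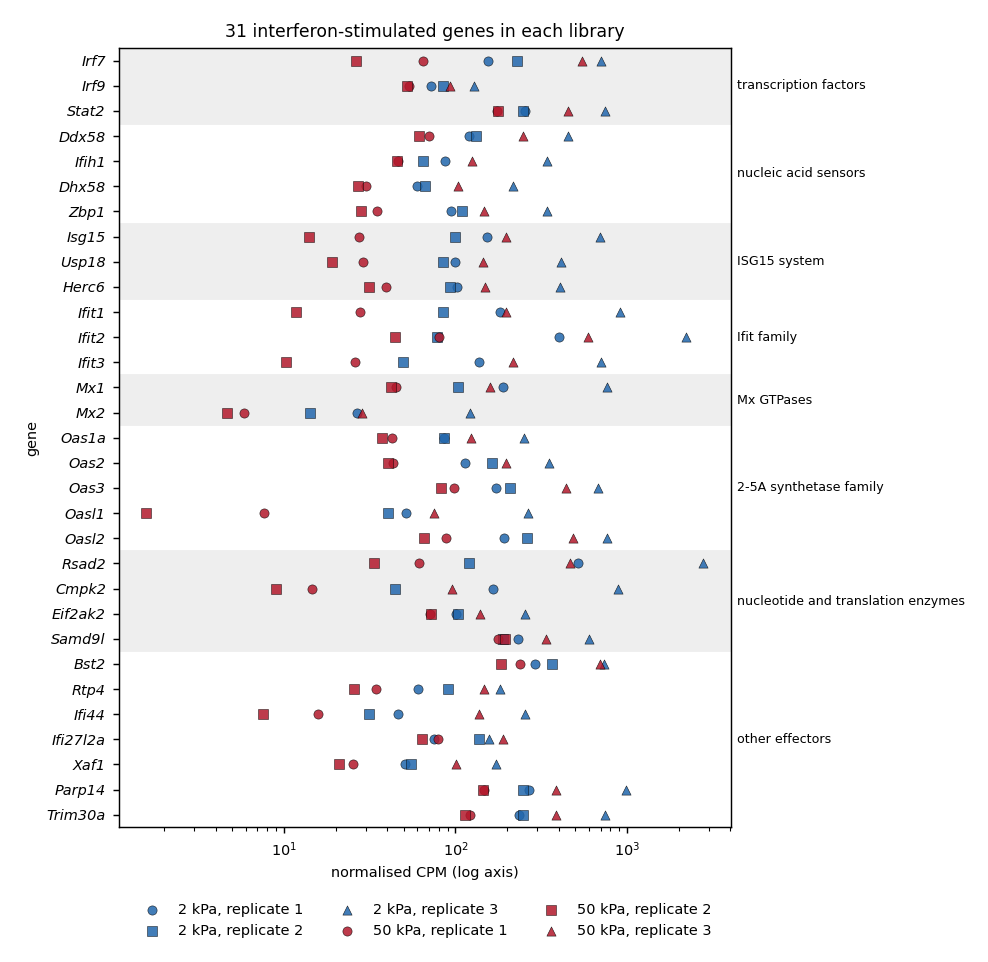
Level of each of the 31 genes in each library, as normalised CPM on a log axis, with genes grouped by role; blue marks 2 kPa, red 50 kPa, and the marker shape the replicate number. The triangles, replicate 3, are the rightmost symbol of their colour in all 31 genes, and the red triangle lies beyond the blue circle and blue square in 28 of them.

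The spread within a stiffness was as large as the difference between stiffnesses for many of these genes. The pooled standard deviation of log2 CPM within a stiffness had a median of 1.17 over the 31 genes and 0.218 over all tested genes. It exceeded the size of the log2 fold change in 14 of the 31. Ranked among all tested genes by this spread, 27 of the 31 lay above the 95th percentile, with Irf9 lowest at percentile 80.7. The highest library was 2 kPa replicate 3 in 30 genes, where it also exceeded 50 kPa replicate 3, and 50 kPa replicate 3 in Ifi27l2a. The lowest was 50 kPa replicate 2 in 28 genes and 50 kPa replicate 1 in Stat2, Eif2ak2 and Samd9l. In 28 of 31 genes 50 kPa replicate 3 exceeded both 2 kPa replicates 1 and 2, the exceptions being Mx1, Rsad2 and Cmpk2. Apart from replicate 3, both 2 kPa libraries exceeded both 50 kPa libraries in 28 of 31 genes, all but Ifit2, Ifi27l2a and Samd9l. The same held for 38.4% of all tested genes.

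The transcription factor genes of the pathway stood at log2 fold changes between -0.77 and -0.51. That of Irf7 depended on the fit and was -1.61 by limma-voom. Irf7, the amplifier of interferon production, was at 154, 227 and 708 CPM in 2 kPa replicates 1 to 3. At 50 kPa it was at 65.0, 26.4 and 547 CPM. Replicate 3 was 3.71 times the mean of the other replicates at 2 kPa and 11.96 times at 50 kPa, so both replicates 3 lay above the other 4 libraries, and the log2 fold change was -0.77 ± 1.15 (edgeR adjusted p = 0.678). Stat2, the STAT that is particular to type I and type III interferon receptors, was at 253, 246 and 747 CPM at 2 kPa and at 174, 178 and 451 CPM at 50 kPa. Its fold change was -0.63 ± 0.58 (edgeR adjusted p = 0.497), with both replicates 3 again highest and 50 kPa replicate 1 lowest. Irf9, the DNA-binding part of ISGF3, varied least of the 31 genes. Its levels were 71.9, 84.4 and 128 CPM at 2 kPa and 53.6, 52.3 and 93.5 CPM at 50 kPa (-0.51 ± 0.31, edgeR adjusted p = 0.316). For Irf9 the highest library was 2.46 times the lowest.

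Sensors of foreign nucleic acid stood between -1.37 and -0.90. These were Ddx58, which encodes RIG-I (-0.90 ± 0.74), Ifih1, which encodes MDA5 (-1.19 ± 0.74), Dhx58, which encodes their regulator LGP2 (-1.10 ± 0.72), and Zbp1, a sensor of Z-form nucleic acid that can start necroptosis (-1.37 ± 0.80). Their edgeR adjusted p-values were 0.303 to 0.454. Zbp1, singled out after its values were seen, was at 93.7, 109 and 341 CPM at 2 kPa and 35.0, 28.2 and 147 CPM at 50 kPa. Only 50 kPa replicate 3 lay among the 2 kPa values of Zbp1, and the same was true of Ddx58, Ifih1 and Dhx58.

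In the ISG15 system fold changes were larger and so were their errors. Isg15 encodes a ubiquitin-like protein that is attached to other proteins, and it lies on chromosome 4, 156199424 to 156200818, minus strand of GRCm38. It was at 154, 99.8 and 693 CPM at 2 kPa and at 27.5, 13.97 and 196 CPM at 50 kPa, a log2 fold change of -2.00 ± 1.18 (edgeR adjusted p = 0.309). Usp18, the protease that removes ISG15 and also damps signalling at IFNAR2, was at 99.0, 84.6 and 413 CPM and at 29.1, 19.05 and 145 CPM (-1.63 ± 0.97, edgeR adjusted p = 0.31). Both genes had 50 kPa replicates 1 and 2 below every 2 kPa library and 50 kPa replicate 3 above 2 of them. Herc6, the ISG15 ligase of mouse cells, stood at -1.45 ± 0.83.

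The Ifit genes, whose products bind viral RNA and block its translation, lie in a cluster on chromosome 19 and had the widest spread of any group. Ifit1 was at 182, 84.6 and 909 CPM at 2 kPa and at 27.6, 11.8 and 197 CPM at 50 kPa (-2.31 ± 1.30, edgeR adjusted p = 0.288). Ifit2 was at 399, 78.3 and 2194 CPM and at 80.05, 44.2 and 595 CPM (-1.89 ± 1.41, edgeR adjusted p = 0.406). For Ifit2 the lowest 2 kPa library lay between the 2 lower 50 kPa libraries. Ifit3 stood at -1.82 ± 1.37. In each of the 3 genes the highest library was at least 49.7 times the lowest, and reads of the family's similar copies may have been split between them.

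Mx1 and Mx2 encode dynamin-like GTPases that trap viral nucleocapsids, and C57BL/6 mice are known to carry alleles that make no working protein. Mx1 had the smallest p of the list, with 190, 104 and 765 CPM at 2 kPa and 45.2, 42.3 and 159 CPM at 50 kPa (-2.10 ± 0.89, edgeR adjusted p = 0.189). Here 50 kPa replicate 3 lay between 2 kPa replicates 1 and 2. Mx2 was at 26.55, 14.3 and 121 CPM and at 5.85, 4.66 and 28.4 CPM (-2.05 ± 1.03, edgeR adjusted p = 0.245). Both genes lie on chromosome 16, and both had 50 kPa replicates 1 and 2 below every 2 kPa library.

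Among the oligoadenylate synthetases, which make the messenger that activates RNase L, fold changes ran from -2.08 to -0.76. Oas1a, Oas2 and Oas3 stood at -1.05 ± 0.63, -1.16 ± 0.74 and -0.76 ± 0.82. Oasl2, a synthetase-like gene, stood at -0.94 ± 0.90. Oasl1, which is known to restrain translation of Irf7 mRNA, had the largest ratio between libraries in the list, a choice made after its values were seen. It was at 51.3, 40.6 and 264 CPM at 2 kPa and at 7.68, 1.58 and 74.5 CPM at 50 kPa (-2.08 ± 1.40, edgeR adjusted p = 0.364). Its highest library was 166.6 times the lowest, and 50 kPa replicate 3 was 16.1 times the mean of the other 50 kPa replicates.

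Enzymes of nucleotide metabolism and translation ran from -3.20 to -0.52. Rsad2 encodes viperin, which makes a chain-terminating nucleotide, and Cmpk2 lies next to it on chromosome 12 and supplies its substrate. Rsad2 had the highest mean CPM of the 31 genes, with 517, 119.5 and 2778 CPM at 2 kPa and 61.5, 33.6 and 467 CPM at 50 kPa (-2.60 ± 1.42, edgeR adjusted p = 0.275). Cmpk2 was at 166, 44.2 and 887 CPM and at 14.6, 9.02 and 95.5 CPM (-3.20 ± 1.37, edgeR adjusted p = 0.19). The pair shared the order of all 6 libraries, with 50 kPa replicate 3 between 2 kPa replicates 1 and 2. Eif2ak2, the RNA-activated kinase PKR, stood at -0.70 ± 0.45 and Samd9l, an inhibitor of translation, at -0.52 ± 0.49.

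The remaining effectors stood between -1.15 and -0.15. Bst2, or tetherin, holds budding virus at the cell surface and was at 290.0, 363 and 734 CPM at 2 kPa and at 239, 184 and 691 CPM at 50 kPa (-0.32 ± 0.59, edgeR adjusted p = 0.744). Parp14, an ADP-ribosyltransferase, was at 268, 248 and 988 CPM and at 146, 145.5 and 384 CPM (-1.15 ± 0.67, edgeR adjusted p = 0.303). Replicate 3 was again the highest of each stiffness, and in Bst2 both replicates 3 lay above the other 4 libraries. Ifi27l2a was named after its values were seen, since it differed least, at 75.4, 137 and 158 CPM and at 79.0, 63.8 and 190 CPM. Trim30a, a ubiquitin ligase, Xaf1, a pro-apoptotic factor, Ifi44 and Rtp4 stood at -0.97 ± 0.66, -0.92 ± 0.76, -1.04 ± 1.25 and -0.69 ± 0.75.

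Per length of exon sequence the order of levels differed from that by CPM. Bst2 had the highest mean at both stiffnesses, 512 CPM per kb at 2 kPa and 411 CPM per kb at 50 kPa. At 2 kPa Isg15 (417 CPM per kb), Ifi27l2a (266 CPM per kb) and Rsad2 (263 CPM per kb) came next. At 50 kPa Isg15 was at 105 CPM per kb, while Ifi27l2a was at 240 CPM per kb. Mx2 was lowest at 50 kPa, with 3.59 CPM per kb, and at 2 kPa, with 14.95 CPM per kb.

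Replicate 3 exceeded the other replicates at both stiffnesses. At 2 kPa replicate 3 was 1.49 to 9.20 times the mean of replicates 1 and 2 over the 31 genes, with a median of 3.58. At 50 kPa it was 1.77 to 16.1 times, with a median of 4.66. Irf9, at 1.64 and 1.77 times, was among the least affected genes at both stiffnesses, while the highest values were those of Ifit2 (9.20) and Rsad2 (8.72) at 2 kPa and of Oasl1 (16.1) and Irf7 (11.96) at 50 kPa. On the log2 scale 27 of the 31 genes were over 1 higher in replicate 3 at both stiffnesses, beside 302 of all 13155 tested genes (2.3%). The same count for other interferon-stimulated genes was 52 of 78.

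**Figure D3:**
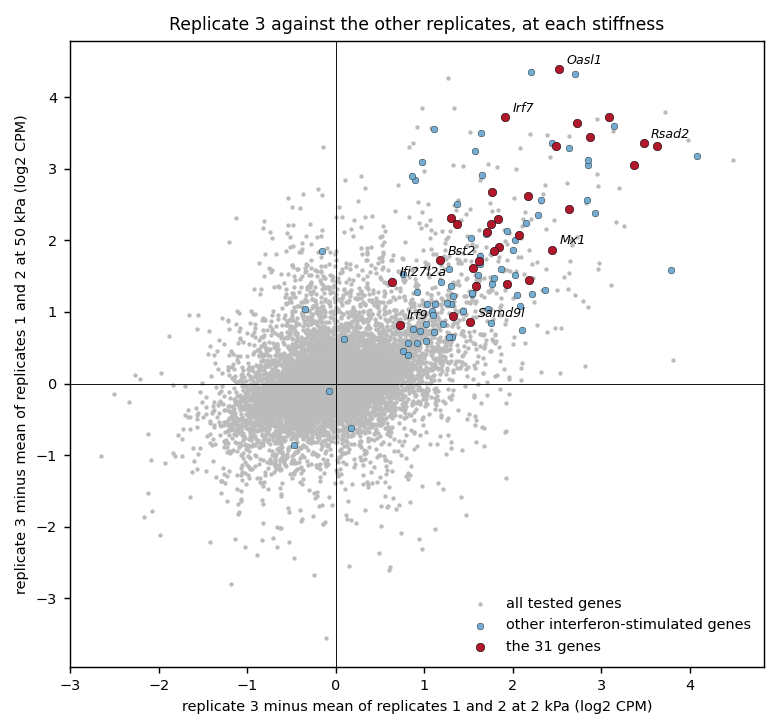
For each tested gene, log2 CPM in replicate 3 minus the mean of replicates 1 and 2, at 2 kPa (x axis) and at 50 kPa (y axis). Red points are the 31 genes and grey points all tested genes. Blue points are those of the 78 other interferon-stimulated genes whose listed symbol is also the one used in the counts. The others of the 78, among them Gm14446 and I830012O16Rik, are drawn grey. All red points lie above 0 on both axes, while the medians of all tested genes are -0.043 and -0.003.

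Without replicate 3 of both stiffnesses all 31 genes again had a lower fitted level at 50 kPa, and 11 were called lower. Both libraries were left out after these same genes were seen to be highest in them, which narrows the spread within a stiffness. The p-values and the share called are therefore no separate support for a difference. The median log2 fold change was -1.43. In this fit of 2 libraries against 2, edgeR called 2.70% of 13271 genes and 35.5% of the 31. The genes called were Oas1a, Oas2 and Oas3, the sensors Ddx58, Dhx58 and Zbp1, Usp18 and Herc6 of the ISG15 system, and Parp14, Trim30a and Xaf1, with edgeR adjusted p-values of 0.0399 to 0.0492. The fall of Zbp1 was -1.65 ± 0.14 on the log2 scale (edgeR adjusted p = 0.0399) and that of Oas2 was -1.69 ± 0.19 (edgeR adjusted p = 0.0434). Over all tested genes the 50 kPa pair of this fit is the most alike of any pair within a stiffness. The p-values of the fit may therefore be too small. For the 31 genes the median absolute log2 difference within the pair was 0.311 at 50 kPa (largest 2.24) and 0.338 at 2 kPa, which does not remove that limit.

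Genes with the largest fold changes were not those that passed. Isg15 (-2.59 ± 0.42), Ifit1 (-2.74 ± 0.59), Cmpk2 (-3.13 ± 0.74) and Oasl1 (-3.29 ± 0.73) had edgeR adjusted p-values of 0.0532 to 0.0749 in this fit. Irf7 moved most from the fit with all libraries, to -2.03 ± 0.49 (edgeR adjusted p = 0.0759), and Samd9l, at -0.14 ± 0.15, came closest to 0. Each library left out singly gave 0 calls in the list.

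**Figure D4:**
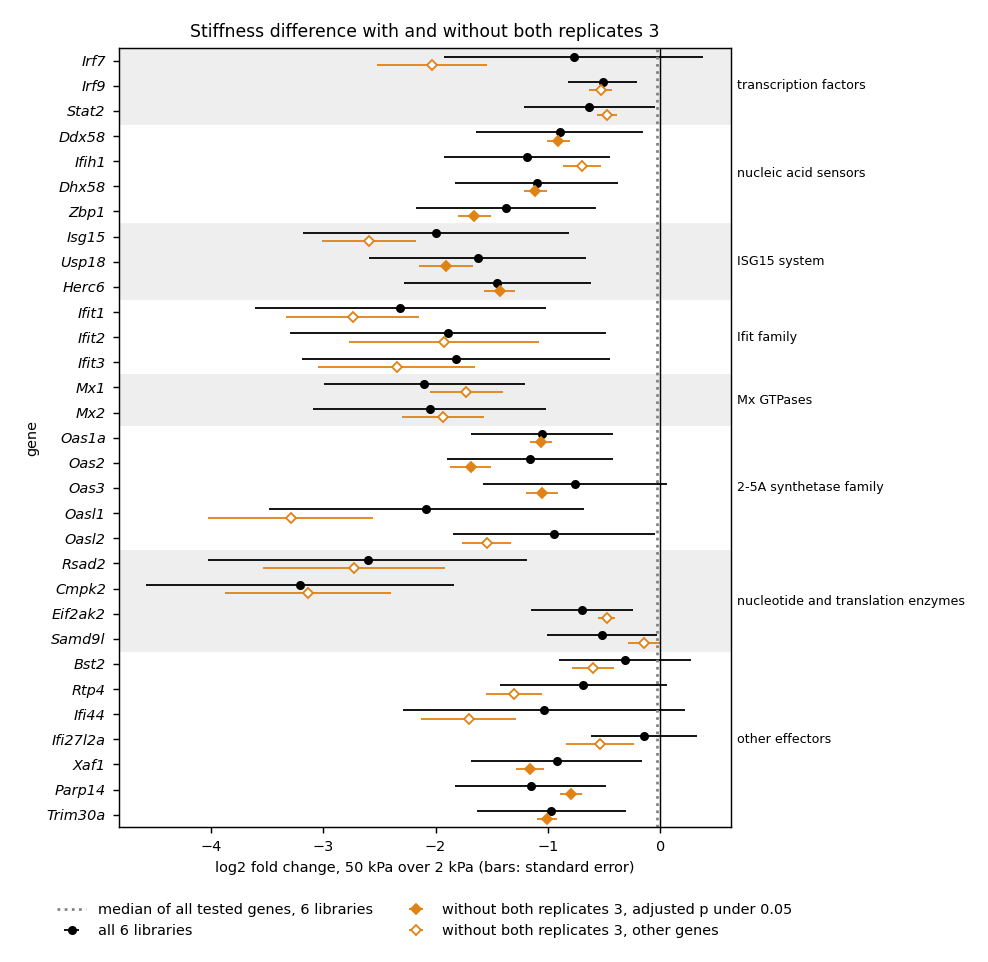
Log2 fold change at 50 kPa over 2 kPa of the 31 genes with standard errors, from all 6 libraries (black) and without replicate 3 of both stiffnesses (orange, filled where the edgeR adjusted p is under 0.05). All black and orange points lie below 0, and the 11 filled points lie between -1.91 and -0.80.

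Counts of the interferon genes themselves were low. Of 21 interferon genes on a list of ligands, 13 had 0 counts in all libraries and 6 had totals of 1 to 3. The 13 numbered interferon alpha genes gave 6 counts in all. They are similar copies, and reads that match several of them may be missing from the counts. Ifnb1, which encodes interferon beta, had 25, 4 and 73 counts at 2 kPa and 2, 0 and 8 counts at 50 kPa. These equal 0.647, 0.0960 and 2.19 CPM and 0.0622, 0 and 0.232 CPM. It was highest in replicate 3 of each stiffness, the groups overlapped, and the exact permutation test over samples gave a 2-sided p of 0.2 (n = 3 and 3, where 0.1 is the smallest p possible). Ifng, which encodes interferon gamma and was the 1 ligand gene with enough counts for the test, had 34, 30 and 177 counts at 2 kPa and 4, 0 and 12 counts at 50 kPa. Its groups did not overlap, with a log2 fold change of -3.82 ± 1.20 (edgeR adjusted p = 0.113). DESeq2, which called 18.0% of all tested genes in either direction, called Ifng lower.

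Genes of the receptor and its kinases varied less, with within-stiffness standard deviations of log2 CPM from 0.165 for Jak1 to 0.395 for Tyk2. Ifnar1 was at 112, 130 and 207 CPM at 2 kPa and 141, 140 and 171 CPM at 50 kPa (0.01 ± 0.24, edgeR adjusted p = 0.982), and its sign turned with the scaling, at -0.09 with total counts. Ifnar2 stood at 0.30 ± 0.21, Jak1 at 0.01 ± 0.14 (-0.11 with total counts) and Tyk2 at -0.31 ± 0.28. Of 18 genes of the receptors, kinases and their regulators, 0 were called and the median was -0.14. In 13 of these 18 (72.2%) replicate 3 was highest at both stiffnesses, beside 21.7% of all tested genes. Its log2 excess over the other replicates had a median of 0.435 at 2 kPa and 0.315 at 50 kPa. For the 31 genes those medians were 1.84 and 2.23. The smallest p-values of that list belonged to Kpna1, which encodes an importin (0.37 ± 0.10, edgeR adjusted p = 0.093), Ifnlr1, the receptor of lambda interferons (-0.66 ± 0.25), the phosphatase gene Ptpn2 (-0.34 ± 0.13) and the coactivator gene Crebbp (-0.34 ± 0.15).

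**Figure D5:**
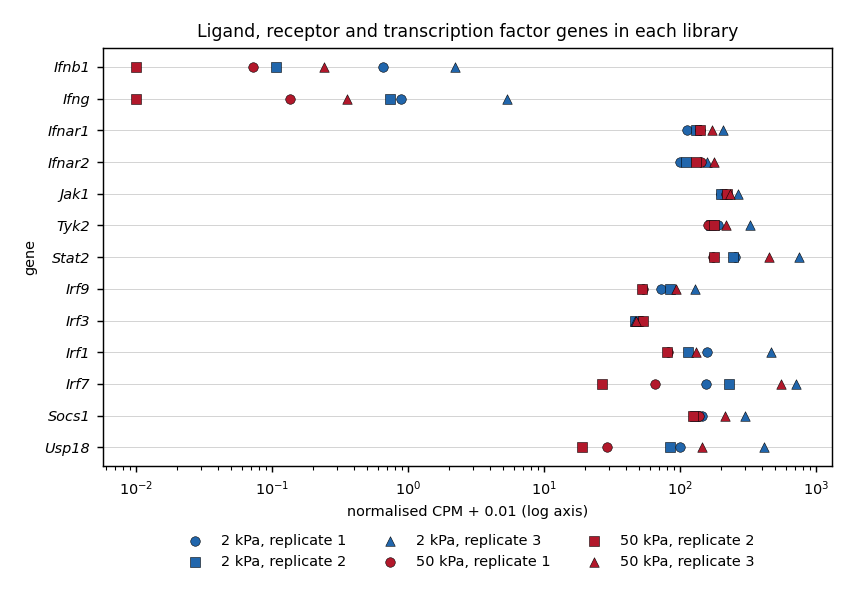
Level of ligand, receptor, kinase, transcription factor and feedback genes in each library, as normalised CPM plus 0.01 on a log axis; blue marks 2 kPa, red 50 kPa, and the marker shape the replicate number. Ifnar1, Ifnar2, Jak1 and Irf3 lie close together in all libraries, while Ifnb1, Ifng and Irf7 are spread.

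Upstream of the ligands, genes of sensing adaptors, kinases and interferon regulatory factors gave 0 calls among 31 tested, with a median of -0.13. In 20 of these upstream genes (64.5%) replicate 3 was highest at both stiffnesses, beside 21.7% of all tested genes. Irf3, the factor that starts Ifnb1 transcription, was at 51.5, 46.3 and 46.7 CPM and 51.9, 53.1 and 47.4 CPM (0.08 ± 0.09, edgeR adjusted p = 0.588; -0.06 with total counts). Irf1, induced by either kind of interferon, was at 156, 113 and 462 CPM and at 80.7, 80.3 and 130 CPM (-1.33 ± 0.55, edgeR adjusted p = 0.18). Mavs, the adaptor of RIG-I and MDA5, stood at 0.41 ± 0.11 (edgeR adjusted p = 0.086) and Myd88, the adaptor of most Toll-like receptors, at -0.58 ± 0.18. Rnaseh2b, a subunit of the nuclease that clears RNA-DNA hybrids, stood at -0.61 ± 0.12 (edgeR adjusted p = 0.0503), the smallest adjusted p of that list. DESeq2 called Rnaseh2b, Mavs and Myd88, where it called 18.0% of all tested genes.

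A wider list of interferon-stimulated genes outside the 31 gave like values. Of 83 listed, 78 were tested and 0 were called, beside 3.45% of all genes. At an unadjusted edgeR p under 0.05 there were 9, beside 27.8% of all genes. The fold change was negative in 73 (93.6%), beside 53.2% of all genes, and the median over the 78 was -0.91. Replicate 3 was the highest library of both stiffnesses in 71 of the 78 (91%), beside 21.7% of all tested genes. Ifitm6, of the membrane proteins that block viral entry, was at 29.0, 47.7 and 33.3 CPM at 2 kPa and 3.64, 3.64 and 13.3 CPM at 50 kPa (-2.42 ± 0.56, edgeR adjusted p = 0.0675), so its groups did not overlap. Its relative Ifitm1 stood at -1.12 ± 0.37 and Nmi, an interactor of STATs, at -1.45 ± 0.48. Ifi30, a lysosomal thiol reductase, went the other way, from 139, 88.7 and 125 CPM to 291, 298 and 192 CPM (1.15 ± 0.24, edgeR adjusted p = 0.0563).

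Levels of cell type markers are given for the same libraries as sums, with the edgeR calls of single markers. Beside the counts at an unadjusted p under 0.05, the share of all tested genes was 27.8% by edgeR (14.8% lower at 50 kPa). Summed over 18 neutrophil markers, levels were 4134 to 8269 CPM at 2 kPa and 958 to 1843 CPM at 50 kPa, with 18 of 18 detected and 8 of 18 called lower, beside 1.98% of all genes. For 10 B cell markers, all detected, the sums were 847 to 1368 CPM and 24.9 to 104 CPM, and 8 of 10 were called lower. For 13 macrophage markers, all detected, they were 4166 to 9405 CPM and 11099 to 13951 CPM, with 0 called and 8 at an unadjusted p under 0.05. For 17 dendritic cell markers, all detected, they were 8311 to 16388 CPM and 16337 to 24012 CPM. Single dendritic cell markers did not share one direction: of 16 tested 0 were called, 13 had an unadjusted p under 0.05, 8 of these were lower at 50 kPa, and the median log2 fold change was -0.41. The 13 T and NK cell markers summed to 12.7 to 23.9 CPM and 5.48 to 8.69 CPM, with 0 of 8 tested called and 4 at an unadjusted p under 0.05. The 10 monocyte markers summed to 2889 to 3700 CPM and 4089 to 4459 CPM, while 3 of them were called lower and 0 higher, with a median log2 fold change of 0.015. None of these lists had a marker at 0 in all libraries. Their part in the values of the interferon-stimulated genes was not tested. Plasmacytoid dendritic cells, which are known for high interferon output, had 14 of 14 markers detected. Their sums were 150.7 to 193.9 CPM at 2 kPa and 156.8 to 179.4 CPM at 50 kPa. Single markers of these cells went both ways, with log2 fold changes from -2.89 to 2.38. Of 12 tested, 1 was called higher and 1 lower, beside 1.47% and 1.98% of all genes, and 5 had an unadjusted edgeR p under 0.05. Among the defining markers of plasmacytoid dendritic cells, Siglech was at 0.0720 to 0.717 CPM and Ccr9 at 0.0299 to 0.511 CPM over the 6 libraries. Klk1 had 0 counts in 3 of the libraries. In none of these 7 sums was replicate 3 the highest library at both stiffnesses. The neutrophil and B cell sums were highest in replicate 2 at 2 kPa and in replicate 3 at 50 kPa. Counted as single tested markers, replicate 3 was highest at both stiffnesses in 0 of 10 B cell to 7 of 16 dendritic cell markers. The latter is 43.8%, beside 21.7% of all tested genes.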

How the data were processed

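For each of the 6 libraries the authors deposited a table of unnormalised read counts by gene symbol. Tools listed in the submitters' processing notes are HTSeq 0.6.1p2, TopHat2 2.0.11, edgeR 3.16.5 and 3.8.6, and FastQC 0.11.2. The notes name the builds mm10 and hg19 without a role. No source used here gives the annotation, the strand setting or the handling of multiply matching reads. Values of near-identical genes (Ifit, Mx, Oas, Trim30 and interferon alpha families) are therefore uncertain. Exons of Oasl1, Irf7, Usp18, Dhx58 and Eif2ak2 overlap a gene on the other strand by 38 to 221 bases in GENCODE vM21, which also gave lengths and positions.

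Samples were grouped by title. In R 4.3.3, edgeR 4.0.16 was run with filterByExpr defaults (minimum count 10, minimum total 15), TMM factors (0.927 to 1.16), glmQLFit and glmQLFTest with stiffness as the term, and Benjamini-Hochberg adjustment over all 13155 tested genes. The standard error is the fold change divided by the square root of F. Log2 CPM used a prior count of 2. 1 CPM equals 32.1 to 41.7 counts, so values well below 1 CPM rest on few reads. The procedure was tested on simulated data. Alternatives were other scalings, filters, tests (DESeq2 1.42.0, limma 3.58.1), the replicate number as a block, and libraries left out or summed.

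The 31 genes and the other lists were chosen with earlier results of these data known. Values in every library are printed for the 5 genes with the highest mean CPM, the 5 with the smallest p, Irf7, Irf9, Stat2, Usp18 and Isg15, and the few genes named as chosen afterwards. From the other lists Ifnb1, Ifnar1, Ifnar2, Jak1, Tyk2, Irf3 and Irf1 and the 4 genes of smallest p in each were named, and 1 further gene of this rule is not reported here. The planned protein comparison was not run, since protein sequences were not used here. Plots were drawn with matplotlib 3.10.9.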

Additional observations from a re-analysis of the deposited data

How the results depend on the processing

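Of the 31 genes 0 were called by edgeR under each scaling and filter tried and with each library left out in turn, and 0 by DESeq2 or limma-voom. Over all genes the other scalings and filters called 0.357% to 3.66%, and the fits with 1 library left out 0% to 3.82%. The lowest count of any of the 31 genes in a library was 53, that of Oasl1 in 50 kPa replicate 2. With replicate number as a block 19 of 31 were called, all lower, beside 5.9% of all genes called in either direction. Without replicate 3 of both stiffnesses 11 were called lower, of which 10 were among the 19. The block also gave 522 lower calls over all genes, 1 lower ligand, 1 lower receptor or signalling gene, 3 lower induction genes and 39 lower other interferon-stimulated genes. The deviations of same-numbered libraries had r = 0.542, -0.106 and 0.488, and 3 of 6 libraries were closest to their own number, so a shared number is not treated as a pair.

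Over all genes, higher calls were 77 with total counts, 20 with at least 5 CPM in 3 libraries, 1121 with DESeq2, 127 without replicate 3 of both stiffnesses and 0 with high tension replicates 1 and 2 summed. Lower calls were 16 with at least 5 CPM, 1251 with DESeq2 and 0 with the summed libraries. Leaving out 1 library gave 0 to 255 higher and 0 to 256 lower calls, and 0 in both directions without either of high tension replicates 1 and 2. DESeq2 called 18.0% of all tested genes in either direction. Among the lists it called 1 ligand lower, 1 receptor or signalling gene higher, 1 induction gene higher and 2 lower, and 1 other interferon-stimulated gene higher and 5 lower. For the induction genes RLE scaling and total counts each gave 1 lower call. Other interferon-stimulated genes had 1 lower call with limma-voom, 18 lower without both replicates 3, and 0 to 1 in each direction with 1 library left out. The cause of these differences was not tested.

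With 1 library left out, log2 fold changes that changed sign ranged from -3.85 to 0.0084 for Ifit2, -1.96 to 0.12 for Oas3, -2.99 to 0.16 for Irf7, -1.24 to 0.10 for Stat2, -1.83 to 4.366e-05 for Ddx58, -3.24 to 0.47 for Ifi44, -0.78 to 0.14 for Ifi27l2a, -1.13 to 0.19 for Bst2 and -0.86 to 0.17 for Samd9l. For these 9 the sign was positive without 2 kPa replicate 3. The ranges were -0.16 to 0.32 for Ifnar1, -0.0633 to 0.15 for Jak1 and -0.49 to 0.0466 for Tyk2. Ifi27l2a was at 0.10 with the summed libraries. Total counts gave -0.0946 for Ifnar1, -0.11 for Jak1 and -0.0580 for Irf3 and moved the median of all genes to -0.162. At least 5 CPM gave -0.0059 for Ifnar1 and -0.0078 for Jak1.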

Other observations

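Genes outside the 31 were also higher in replicate 3 at both stiffnesses. The threshold, chosen after seeing the data, was a log2 CPM in replicate 3 over 2 above the mean log2 CPM of replicates 1 and 2. At both stiffnesses 58 of 13155 tested genes (0.441%) passed it, which is over 4-fold on that scale. Of these 58, 11 were among the 31 genes, which is 19% of the 58 and 35.5% of the 31, and 16 were other interferon-stimulated genes. The other 31 included Ifng, of the ligand list, and Iigp1, Tgtp1, Tgtp2, Gbp6, Gbp10 and Cxcl11, which interferons are known to induce. A further 5 of them are given by value, chosen after their values were seen. Irg1, which makes itaconate, was at 535, 557 and 2806 CPM at 2 kPa and at 150.5, 96.6 and 827 CPM at 50 kPa. Ptgs2, the inducible cyclooxygenase, was at 113, 138 and 536 CPM and at 29.6, 29.7 and 137 CPM. Il1a, which encodes interleukin 1 alpha, was at 142, 210 and 738 CPM and at 59.0, 45.7 and 213 CPM. Il12b, the shared chain of interleukins 12 and 23, was at 67.0, 78.1 and 306 CPM and at 9.33, 5.46 and 70.0 CPM. Cfb, complement factor B, was at 393, 627 and 2040 CPM and at 308, 163 and 1792 CPM. None of these 5 genes passed the edgeR test for stiffness, with adjusted p-values of 0.197 to 0.796.

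Chemokine genes that both kinds of interferon can induce also differed between libraries. Cxcl10 was at 318, 31.4 and 1692 CPM at 2 kPa and at 14.5, 7.404 and 94.4 CPM at 50 kPa (-4.13 ± 1.62, edgeR adjusted p = 0.166), and its highest library was 228.6 times its lowest. Cxcl11 was at 8.77, 0.456 and 47.6 CPM and at 0.404, 0.149 and 2.63 CPM (-4.14 ± 1.67, edgeR adjusted p = 0.173).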
